A study of Mus musculus with 4 samples.

Results

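Expression of 10 transcription factor genes that T cell receptor signals induce or activate was examined in regulatory T cells (Treg cells), the CD4+Foxp3+ T cells that restrain immune responses. The genes were the nuclear receptors Nr4a1, Nr4a2 and Nr4a3, the zinc finger factors Egr1, Egr2 and Egr3, the NFAT family members Nfatc1, Nfatc2 and Nfatc3, and Myc. They were chosen by name, and each had its own row among the 27179 genes of the count table. RNA sequencing libraries had been made from Treg cells out of the spleen and peripheral lymph nodes, taken at steady state from mice of the C57BL/6 strain. The data comprised 2 libraries of the genotype P65KO, described as deficient in RelA (p65), a DNA-binding subunit of NF-kB, and 2 libraries of the genotype WT. No source used here names the Cre driver, the alleles, the ages or whether animals were pooled, and none says that replicates came from separate mice. The p-values therefore rest on how far single libraries of a group lay apart, part of which may be technical. In the test used, the spread of each gene was in part borrowed from the other tested genes.

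The 4 libraries held 4513863 to 4624230 counts. Rela itself had 820 and 909 counts in P65KO libraries, against 875 and 806 in WT libraries, but whole-gene counts also take in exons that a deletion leaves intact and could not check the label. Foxp3 and Cd4, which define the labelled cells, averaged 457 ± 100 and 997 ± 47.3 CPM (counts scaled to a common library total) in P65KO libraries and 374 ± 4.25 and 1099 ± 76.5 CPM in WT libraries (SD, n = 2 each). Of 9 Treg and CD4 T cell markers 1 rose, 4 fell and 4 did not pass. Ikzf2 (Helios) was 3.14-fold and Ctla4 1.89-fold lower in P65KO libraries. Il2ra, the marker that rose, was 1.34-fold higher, at 733 ± 96.0 CPM in P65KO libraries and 546 ± 9.11 CPM in WT libraries. Trac was 1.24-fold lower. The call of Il2ra held in 7 of 11 other settings and that of Trac in 5. The number that fell was 2 when any 1 of the 4 libraries was left out, with the replicate block or with no filter, and the number that rose was 0 to 2 with a library left out. The Y-linked gene Ddx3y had 302 and 404 counts in P65KO libraries and 0 in both WT libraries. Xist went the other way, with 0 and 2 counts in P65KO libraries and 494 and 608 in WT libraries. All 5 sex-linked genes tested passed, 4 higher and 1 lower in P65KO libraries. Genotype and sex therefore cannot be told apart for any difference between the groups, those of the 10 genes included. Myeloid markers also moved with the genotype. The 16 markers summed to 1205 and 455 CPM in P65KO libraries, against 172 and 242 CPM in WT libraries. Of the 11 that were tested 10 rose and 1 fell, and none was at 0 in all 4 libraries. The number that rose was 4 without WT replicate 1, without WT replicate 2 or with no filter on low counts. The 8 erythroid and platelet markers in the table summed to 111 and 193 CPM in P65KO libraries and 21.4 and 28.1 CPM in WT libraries, with 4 of 4 tested genes higher, 2 of them without WT replicate 2, and Pf4 at 0. The part of these other cells in the results below was not tested. Values without P65KO replicate 1 do not test it, since P65KO replicate 2 also stood above both WT libraries in both sums. In bulk samples, fewer cells of a type and less RNA per cell cannot be told apart.

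Engagement of the T cell receptor opens calcium channels, and calcium activates the phosphatase calcineurin, which dephosphorylates NFAT proteins so that they enter the nucleus. In parallel, kinase signals acting through serum response factor and CREB switch on immediate early genes, among them the EGR and NR4A genes, within a short time and without new protein synthesis. Nr4a1 transcription is widely used as a reporter of recent receptor signalling, NR4A receptors help to maintain Foxp3 and the Treg lineage, and Egr2 and Egr3 are known for restraining T cell activation. Myc drives ribosome production and growth after activation.

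The promoters of the 3 NR4A genes and of Egr2 are shown because receptor signals act on these genes at their promoters, and because Nr4a2 and Egr2 passed the test between the genotypes while Nr4a1 and Nr4a3 did not. Whether the genes differed from each other in their response was not tested. The sequences are RefSeq promoter windows (assembly GRCm38.p6, 250 bases before to 50 after a start site), printed in the direction of transcription. Capitals mark the CREB-site core TGACG or its reverse complement CGTCA, the CArG box bound by serum response factor, and the NF-kB motif. Egr2 had 5 windows, and the one shown starts at a principal GENCODE M21 transcript.
Nr4a1, chr15:101266596-101266895, plus strand: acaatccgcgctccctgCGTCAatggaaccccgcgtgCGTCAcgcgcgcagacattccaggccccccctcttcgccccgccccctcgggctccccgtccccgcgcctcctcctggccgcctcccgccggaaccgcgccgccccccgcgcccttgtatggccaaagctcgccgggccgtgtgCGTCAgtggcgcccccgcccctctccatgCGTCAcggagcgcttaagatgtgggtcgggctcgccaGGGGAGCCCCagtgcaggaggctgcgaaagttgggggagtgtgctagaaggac
Nr4a2, chr2:57123954-57124253, minus strand: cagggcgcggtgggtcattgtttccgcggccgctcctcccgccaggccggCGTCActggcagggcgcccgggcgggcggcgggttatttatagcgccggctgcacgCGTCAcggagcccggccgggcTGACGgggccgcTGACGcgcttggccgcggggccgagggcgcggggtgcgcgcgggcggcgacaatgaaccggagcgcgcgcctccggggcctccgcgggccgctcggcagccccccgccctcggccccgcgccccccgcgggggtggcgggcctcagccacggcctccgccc
Nr4a3, chr4:48045055-48045354, plus strand: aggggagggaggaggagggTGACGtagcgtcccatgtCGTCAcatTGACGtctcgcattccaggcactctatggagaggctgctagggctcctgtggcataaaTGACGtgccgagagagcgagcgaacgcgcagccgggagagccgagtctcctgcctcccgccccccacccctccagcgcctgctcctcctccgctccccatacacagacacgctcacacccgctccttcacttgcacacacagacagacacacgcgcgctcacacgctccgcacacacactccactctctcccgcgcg
Egr2, chr10:67537619-67537918, plus strand: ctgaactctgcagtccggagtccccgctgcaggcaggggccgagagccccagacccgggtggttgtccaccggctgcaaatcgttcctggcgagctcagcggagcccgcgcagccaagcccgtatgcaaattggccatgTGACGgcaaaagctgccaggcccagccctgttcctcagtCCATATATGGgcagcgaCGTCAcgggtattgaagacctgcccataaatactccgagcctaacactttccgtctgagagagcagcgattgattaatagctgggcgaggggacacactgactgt

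Each NR4A window held 4 copies of the core TGACG, counting both strands, and the Egr2 window held 2. The core was added to the search after the sequences had been seen. Of all 32817 promoter windows, 20.8% held at least 1 copy, 5.01% at least 2 and 0.232% at least 4. The CArG box of Egr2 starts 72 bases before the start site, and 1.63% of windows held that motif. An NF-kB match spans the start site of Nr4a1, and another Egr2 window, chr10:67535249-67535548, held 2 overlapping matches. NF-kB matches occurred in 8.46% of windows. Both strands were also searched for the full CRE TGACGTCA, which contains the core (1.79% of windows), AP-1 TGANTCA (7.81%), the EGR site GCGTGGGCG (0.612%) and the NR4A site AAAGGTCA (1.51%), with no match in the 4 windows shown. The NFAT core GGAAA, held by 61.3% of windows, stood once each in the Nr4a2 and Egr2 windows shown, and the E-box CACGTG, held by 7.15%, in none of the 4. These matches are descriptions of letters, not of bound sites. Windows were found for 6 of the 10 genes, the others being Egr1, Egr3, Nfatc1 and Myc.

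Egr2, Egr3, Nfatc1 and Nr4a2 were lower in P65KO Treg cells than in WT Treg cells, and Myc was higher. Nr4a1, Nr4a3, Egr1, Nfatc2 and Nfatc3 did not pass the test. Egr2 and Nr4a2 were each 2.43-fold lower and Nfatc1 1.82-fold lower. The calls of Egr2 and Nfatc1 held under each of the 11 other settings tried. The calls of Egr3, Nr4a2 and Myc each ended in some settings. In all, 4 of 10 genes fell and 1 rose, where 11.7% of the 11172 genes tested fell and 9.00% rose (20.7% in either direction; quasi-likelihood test of edgeR, p adjusted over all tested genes by Benjamini-Hochberg (BH), threshold 0.05). The median log2 fold change was -0.26 over the 10 genes and 0.00 over all tested genes. CPM ranges of the groups did not overlap for 7 of the 10 genes, 5 lower and 2 higher in P65KO libraries. Over all tested genes the share was 60.5%, with 30.9% lower and 29.7% higher.

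**Figure D1:**
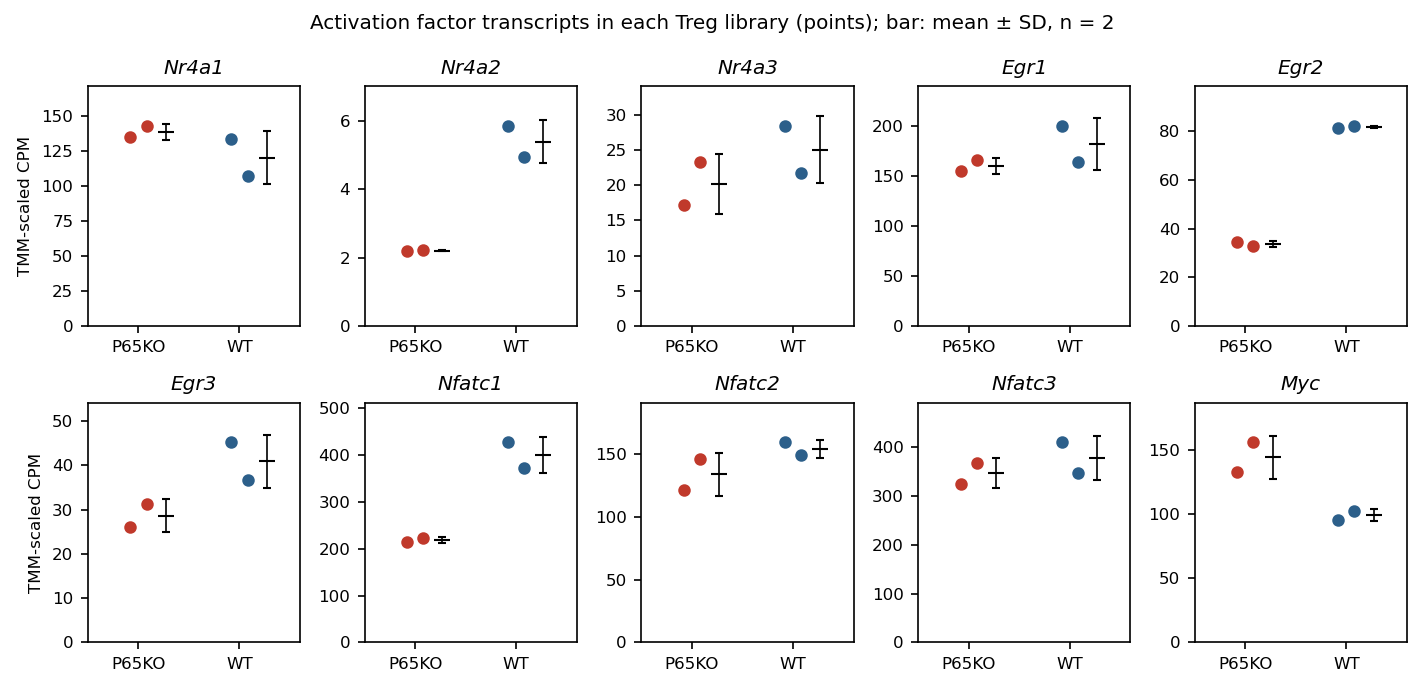
TMM-scaled CPM (y axis, from 0) of each gene in each library, with P65KO in red at the left and WT in blue at the right; points are libraries and black bars the mean ± SD (n = 2). Egr2 sits at 34.4 and 32.8 CPM in P65KO libraries, against 81.4 and 82.2 CPM in WT libraries.

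**Figure D2:**
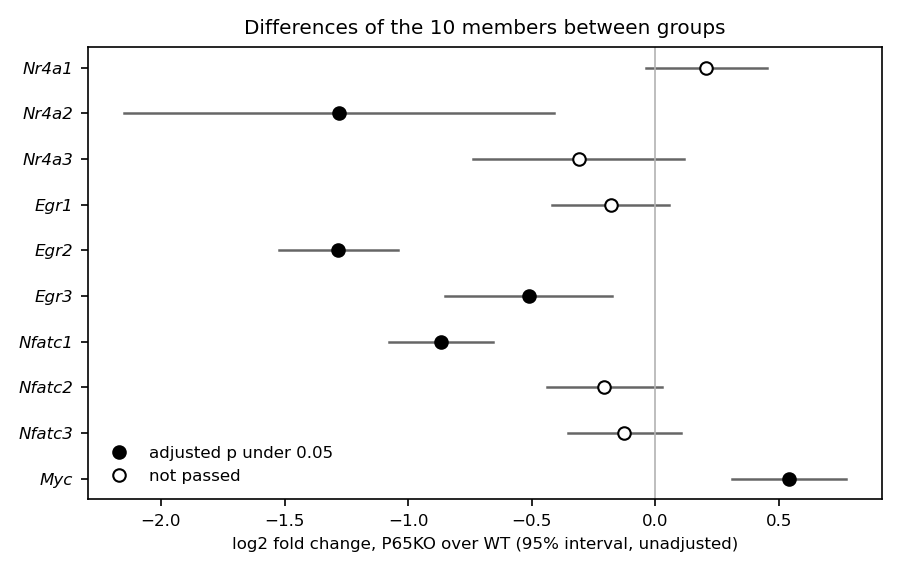
log2 fold change of each gene, P65KO over WT (x axis), with its unadjusted 95% interval; filled points passed the test over all genes. Egr2, Nr4a2, Nfatc1 and Egr3 lie below 0 and Myc above 0.

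The EGR genes encode zinc finger factors that bind the same GC-rich site. Egr2 (gene ID 13654; chromosome 10 of GRCm38, bases 67534469 to 67542188) was measured at 156 and 148 counts in P65KO libraries, against 375 and 382 in WT libraries. In CPM, scaled by TMM, it stood at 34.4 and 32.8 in P65KO libraries and at 81.4 and 82.2 in WT libraries. Both P65KO libraries were low, both WT libraries were high, and within each group the libraries nearly coincided. The log2 fold change was -1.28 (SE 0.11, 95% interval -1.52 to -1.04; edgeR, BH-adjusted p = 5.69e-06), the 540th lowest of 11172. Without P65KO replicate 1, the log2 fold change of Egr2 was -1.32, which does not test the part of myeloid cells.

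Egr3, which acts with Egr2 in T cell anergy, had 26.0 and 31.2 CPM in P65KO libraries and 45.1 and 36.6 CPM in WT libraries. The groups did not overlap, but the libraries of each were further apart than for Egr2. Egr3 fell by 0.51 on the log2 scale (SE 0.16; edgeR, BH-adjusted p = 0.0345). The call was lost when WT replicate 1, WT replicate 2 or P65KO replicate 1 was left out, at log2 differences of -0.35, -0.65 and -0.39 (edgeR, BH-adjusted p of 0.296, 0.0763 and 0.198), and also with DESeq2 and with no filter on low counts.

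Egr1, the family member induced most broadly by growth factor and receptor signals, had 155 and 166 CPM in P65KO libraries and 200 and 164 CPM in WT libraries. The groups overlapped. Its log2 fold change of -0.18 did not pass (SE 0.11; edgeR, BH-adjusted p = 0.282), and the 95% interval corresponds to 0.749-fold to 1.04-fold.

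The make-up of the family was compared per gene length, from the deposited RPKM values, which carry no scaling between libraries. Egr1 made up 62.7% and 62.0% of the summed RPKM of the 3 EGR genes in P65KO libraries and 52.3% and 49.8% in WT libraries. Egr2 made up 14.4% and 12.7% in P65KO libraries and 22% and 25.9% in WT libraries. The share of Egr3 overlapped between the groups. The ratio of Egr2 to Egr1 RPKM was 0.230 and 0.205 in P65KO libraries, against 0.421 and 0.520 in WT libraries. Such ratios carry an exact two-sided permutation p of 0.333, the smallest that 2 libraries against 2 allow.

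NFAT proteins are controlled mainly by calcineurin at the protein level, but Nfatc1 is also induced as a transcript through its own autoregulation in activated lymphocytes. Nfatc1 (gene ID 18018; chromosome 18 of GRCm38, bases 80606205 to 80713071) was measured at 974 and 1010 counts in P65KO libraries, against 1967 and 1732 in WT libraries. This corresponds to 215 and 224 CPM in P65KO libraries and 427 and 373 CPM in WT libraries. The groups were well apart, and the P65KO libraries lay close together. Nfatc1 fell by 0.87 on the log2 scale (SE 0.10, 95% interval -1.08 to -0.66; edgeR, BH-adjusted p = 4.88e-05). Leaving out single libraries gave log2 differences from -0.96 to -0.76, all past the threshold, with -0.84 when P65KO replicate 1 was left out. Counts over the whole gene do not separate its inducible short isoform from the long ones.

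Nfatc2, a constitutively expressed family member, had 121 and 146 CPM in P65KO libraries and 159 and 149 CPM in WT libraries. The groups were adjacent without overlap, and the log2 fold change of -0.21 did not pass (SE 0.11; edgeR, BH-adjusted p = 0.205). Nfatc3, the other constitutive member in T cells, had 324 and 368 CPM in P65KO libraries and 409 and 346 CPM in WT libraries. The groups overlapped, with a log2 fold change of -0.13 (SE 0.11; edgeR, BH-adjusted p = 0.454) that was 0.00097 without WT replicate 1. In GENCODE M21 its exons overlap those of Esrp2 on the opposite strand, and Esrp2 had 0 counts in both P65KO libraries and 1 and 0 in WT libraries. The exons of the other 9 genes overlapped no other gene.

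Per length, Nfatc1 supplied 29.7% and 27.7% of the summed RPKM of the 3 NFAT genes in P65KO libraries, against 39.7% and 39.9% in WT libraries. Nfatc3 supplied 55.4% and 56.2% in P65KO libraries and 47.1% and 45.8% in WT libraries. Nfatc2 held a small share in both groups, 14.9% and 16.1% in P65KO libraries and 13.2% and 14.2% in WT libraries. The ratio of Nfatc1 to Nfatc3 RPKM was 0.536 and 0.492 in P65KO libraries, against 0.845 and 0.871 in WT libraries.

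**Figure D3:**
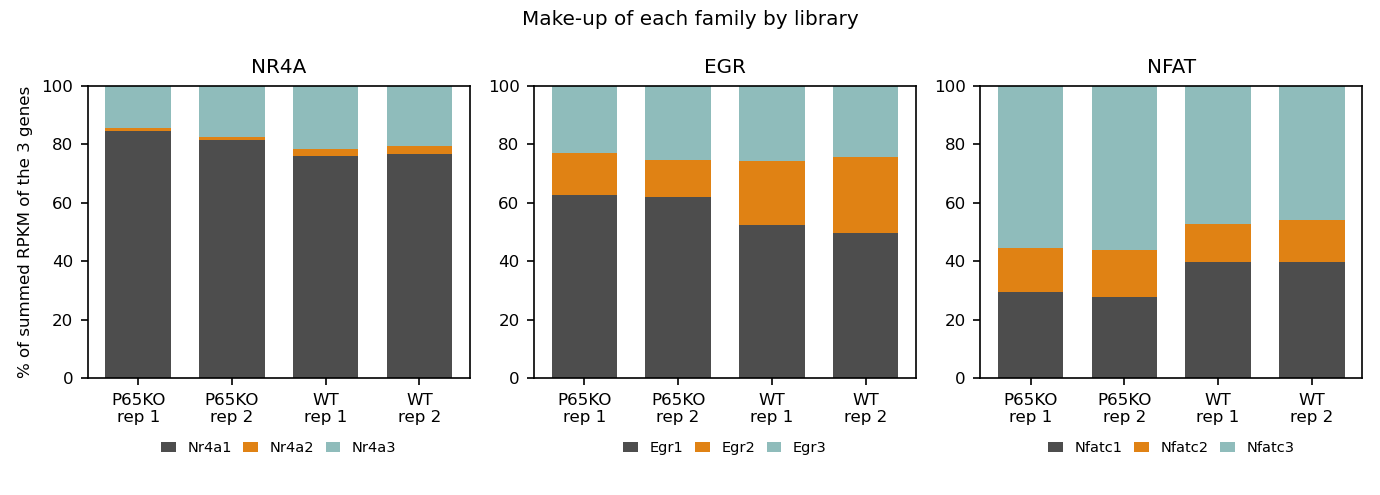
Share (%) of each gene in the summed RPKM of its family (y axis, 0 to 100), for the NR4A, EGR and NFAT genes in each library, P65KO at the left. Nfatc1 takes 29.7% and 27.7% of the NFAT bar in P65KO libraries and 39.7% and 39.9% in WT libraries.

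NR4A proteins are orphan nuclear receptors whose activity follows the amount made. Nr4a1 (Nur77) had 135 and 143 CPM in P65KO libraries and 133 and 107 CPM in WT libraries. The P65KO libraries were close together, and WT replicate 1 stood almost beside them. Its log2 fold change of 0.21 did not pass (SE 0.11; edgeR, BH-adjusted p = 0.229), with a 95% interval of 0.974-fold to 1.37-fold.

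Nr4a2 (Nurr1) was the least abundant of the 10 genes, with 10 counts in each P65KO library and 27 and 23 in WT libraries. In CPM this was 2.21 in both P65KO libraries, against 5.86 and 4.95 in WT libraries. The groups did not overlap, but each value rested on few counts, where 3 counts correspond to 0.646 to 0.664 CPM in 1 library. Nr4a2 was 2.43-fold lower (log2 -1.28, SE 0.40, 95% interval -2.15 to -0.41; edgeR, BH-adjusted p = 0.0399). The call ended with each of the 4 libraries left out (edgeR, BH-adjusted p of 0.0889 to 0.182, at log2 -1.39 to -1.15), with DESeq2, with limma-voom and with no filter.

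Nr4a3 (Nor1) had 17.2 and 23.3 CPM in P65KO libraries and 28.4 and 21.7 CPM in WT libraries, and the groups overlapped. Its log2 fold change of -0.31 did not pass (SE 0.20; edgeR, BH-adjusted p = 0.306). Per length, Nr4a1 made up 84.6% and 81.5% of the summed RPKM of the NR4A genes in P65KO libraries, against 76.1% and 76.7% in WT libraries. The summed RPKM of the family was 63.3 and 69.1 in P65KO libraries and 72.2 and 56.7 in WT libraries, so the groups overlapped in the total.

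Myc (Entrez 17869; GRCm38 chromosome 15, 61985341 to 61990361), a basic helix-loop-helix factor that works as a dimer with Max, went the other way. It had 602 and 705 counts in P65KO libraries and 442 and 477 in WT libraries, or 133 and 156 CPM in P65KO libraries and 95.9 and 103 CPM in WT libraries. Both P65KO libraries were above both WT libraries. Myc rose 1.45-fold (log2 0.54, SE 0.11, 95% interval 0.31 to 0.77; edgeR, BH-adjusted p = 0.00306). The call ended without WT replicate 1, at log2 0.49, and with no filter on low counts (edgeR, BH-adjusted p of 0.0808 and 0.0714). Without P65KO replicate 1, the log2 difference was 0.65, which does not test the part of myeloid cells.

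**Figure D4:**
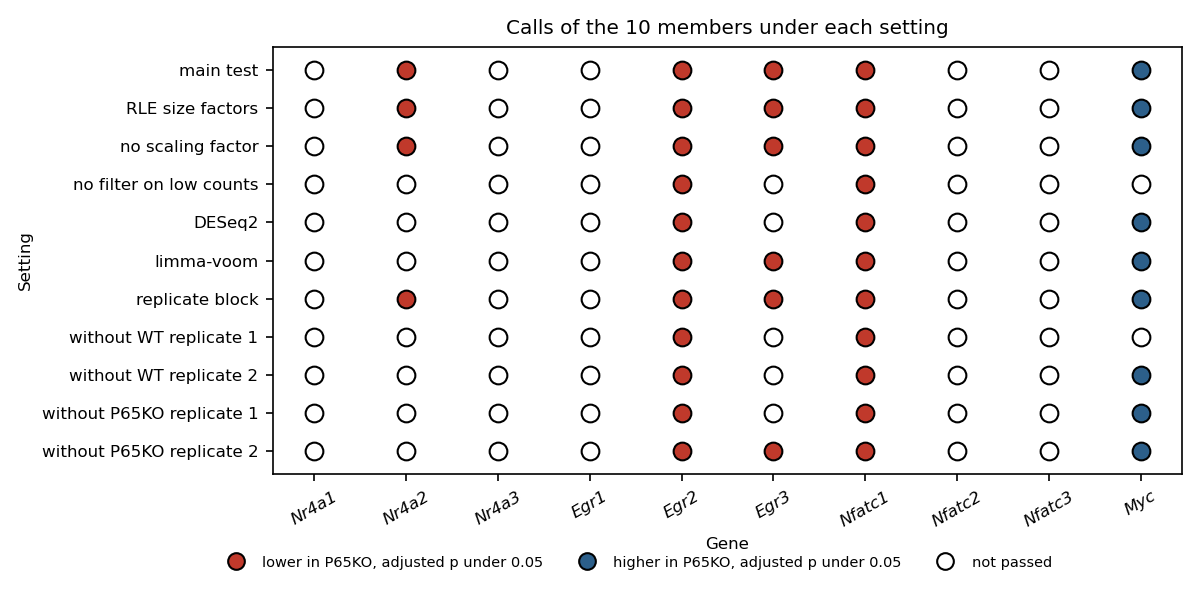
Call of each gene (columns) in the main test and under 10 other settings (rows); red marks genes lower and blue genes higher in P65KO libraries past the threshold, white those that did not pass. Egr2 and Nfatc1 are red in every row shown, while Nr4a2, Egr3 and Myc lose their colour in some.

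Set in order by mean RPKM per gene, the levels in P65KO libraries ran from Myc (59.1 ± 6.35), Nfatc3 (56.5 ± 4.59), Nr4a1 (54.9 ± 1.89) and Egr1 (51.4 ± 2.19) to Nfatc1 (29.0 ± 0.627), Egr3 (19.9 ± 2.41), Nfatc2 (15.7 ± 1.94), Egr2 (11.2 ± 0.458), Nr4a3 (10.6 ± 2.16) and Nr4a2 (0.680 ± 0.003; SD, n = 2). In WT libraries the order was Nfatc3 (63.7 ± 8.09), Egr1 (60.2 ± 9.09), Nfatc1 (54.6 ± 5.73), Nr4a1 (49.3 ± 8.07), Myc (42.0 ± 1.62), Egr3 (29.4 ± 4.61), Egr2 (28.0 ± 0.062), Nfatc2 (18.7 ± 1.03), Nr4a3 (13.6 ± 2.68) and Nr4a2 (1.67 ± 0.211; SD, n = 2). Among neighbours in the P65KO order, library ranges overlapped for Myc and Nfatc3, for Nfatc3 and Nr4a1, and for Egr2 and Nr4a3. In the WT order they overlapped for Nfatc3 and Egr1, for Egr1 and Nfatc1, for Nfatc1 and Nr4a1, and for Egr3 and Egr2. Nfatc1 stood among the leading genes in WT libraries and below them in P65KO libraries.

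Genes whose CPM pattern lay closest to that of Egr2 over the 4 libraries were Ybx3, Mrgpre and Stard10, by the root mean square distance of centred log2(CPM + 1). The distances were 0.0285, 0.0411 and 0.0412. Ybx3, a cold shock domain protein, had 64.2 and 58.0 CPM in P65KO libraries and 145 and 146 CPM in WT libraries. Mrgpre, at 6.62 and 6.20 CPM in P65KO libraries and 17.6 and 16.4 CPM in WT libraries, and Stard10, at 11.7 CPM in both P65KO libraries and 30.8 CPM in both WT libraries, were less abundant in CPM. The measure covers 4 libraries and takes in the difference between the groups.

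Of 26 tested genes of the calcium and calcineurin pathway and other NFAT genes, 2 rose, 1 fell and 23 did not pass. Their median log2 fold change was -0.04. Among all tested genes, 9.00% rose and 11.7% fell. Orai3, a calcium channel subunit, fell by 0.63 on the log2 scale, a call that ended without WT replicate 2 and with no filter. Rcan3, a calcineurin regulator, rose 1.43-fold (edgeR, BH-adjusted p = 0.00165), with 654 and 651 counts in P65KO libraries against 467 and 466 in WT libraries, and kept its call in each of 11 settings. Ppp3ca, a calcineurin catalytic subunit, rose 1.34-fold, a call that ended in 7 of 11 settings. The other catalytic subunit genes, Ppp3cb (log2 -0.07) and Ppp3cc (log2 -0.34), did not pass. Rcan1, a feedback inhibitor of calcineurin that NFAT itself induces, stood at 18.0 ± 1.35 CPM in P65KO libraries and 19.2 ± 2.87 CPM in WT libraries (SD, n = 2 each). Nfat5, the family member that responds to osmotic stress, stood at 50.7 ± 0.322 CPM in P65KO libraries and 52.4 ± 2.61 CPM in WT libraries. Nfatc4 had no counts in any library.

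Of 12 tested co-regulators of EGR and NR4A factors, 1 rose and 11 did not pass, where 20.7% of all tested genes passed. Nab1 and Nab2, the corepressors that bind EGR proteins, stood at 90.9 ± 10.8 and 91.1 ± 7.76 CPM in P65KO libraries and at 104 ± 2.46 and 82.2 ± 7.07 CPM in WT libraries (SD, n = 2 each).

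Genes reported as targets of NFAT, EGR or NR4A factors in T cells were more often lower than higher in P65KO libraries. Among the 30 tested genes 16 fell and 4 rose, 10 did not pass, and the median log2 fold change was -0.82. Over all tested genes 11.7% fell and 9.00% rose. The list was drawn up with earlier results of these data known, and the activity of these factors was not tested. The number that fell was 15 to 17 under the 11 other settings, and the number that rose was 1 to 5. Tox2, an HMG-box factor, was 18.2-fold lower, with 3.32 ± 0.322 CPM in P65KO libraries and 60.8 ± 16.3 CPM in WT libraries (SD, n = 2 each). Rnf128 (GRAIL), an anergy-associated ubiquitin ligase, had 2 and 5 counts in P65KO libraries and 54 and 30 in WT libraries. The inhibitory receptor genes Lag3 and Pdcd1 were 6.15-fold and 5.02-fold lower. The edgeR, BH-adjusted p was 2.88e-07 for Tox2, 0.000501 for Rnf128, 1.92e-08 for Lag3 and 1.18e-07 for Pdcd1. Irf4 and Batf, partners of NFAT and AP-1 at shared sites, were 2.51-fold and 3.23-fold lower, and Ikzf4 (Eos), a Foxp3 cofactor, was 1.49-fold lower. Ndrg1, associated with T cell anergy, was 2.09-fold higher, with 61.9 ± 5.49 CPM in P65KO libraries and 29.6 ± 2.32 CPM in WT libraries. The other genes that rose were Dgka (1.27-fold), Il2ra (1.34-fold) and Havcr2 (2.38-fold). Havcr2, also an inhibitory receptor gene, had 49 and 26 counts in P65KO libraries and 18 and 14 in WT libraries. Cblb (log2 -0.02), Itch (log2 0.13) and Dgkz (log2 0.12) did not pass. Many genes of this list also mark effector Treg cells, which the list does not separate from targets.

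Other immediate early genes moved in both directions. Among the 21 tested genes 6 fell and 4 rose, 11 did not pass, with a median log2 fold change of -0.05. Over all tested genes 11.7% fell and 9.00% rose. The number that rose was 2 without WT replicate 1, WT replicate 2 or P65KO replicate 1, and 3 without P65KO replicate 2, while 4 to 5 fell. With no filter 2 rose and 3 fell, and with DESeq2 2 rose and 4 fell. Jun, an AP-1 subunit, rose 3.23-fold (edgeR, BH-adjusted p = 2.10e-05), to 36.0 ± 1.15 CPM in P65KO libraries against 11.1 ± 1.44 CPM in WT libraries (SD, n = 2 each). Junb, another AP-1 subunit, fell 1.96-fold (edgeR, BH-adjusted p = 3.84e-05), to 142 ± 13.7 CPM in P65KO libraries against 278 ± 26.9 CPM in WT libraries. Dusp1, a MAP kinase phosphatase, fell 1.95-fold. Fos had 49 and 58 counts in P65KO libraries and 36 and 28 in WT libraries, and did not pass. Klf4 rose 3.84-fold from few counts, 30 and 12 in P65KO libraries and 5 and 6 in WT libraries. It was highest in the P65KO library with the most myeloid transcripts, and its call ended in 6 of 11 settings.

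Of 24 tested textbook targets of MYC, 7 rose, 1 fell and 16 did not pass, with a median log2 fold change of 0.20. Among all tested genes, 9.00% rose and 11.7% fell. Slc7a5, a chain of the large neutral amino acid transporter, rose 1.55-fold, to 110 ± 15.5 CPM in P65KO libraries against 71.3 ± 3.24 CPM in WT libraries (SD, n = 2 each). Polr1b, an RNA polymerase I subunit, and Srm, spermidine synthase, rose 1.38-fold and 1.37-fold. Odc1, the rate-limiting enzyme of polyamine synthesis and a classical MYC target, fell 3.23-fold (edgeR, BH-adjusted p = 5.12e-07), to 54.0 ± 6.56 CPM in P65KO libraries against 175 ± 6.43 CPM in WT libraries, and kept its call in each of 11 settings. The number called higher was 0 without WT replicate 1, without WT replicate 2 or with no filter, 3 without P65KO replicate 1, 1 without P65KO replicate 2 and 2 with DESeq2.

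**Figure D5:**
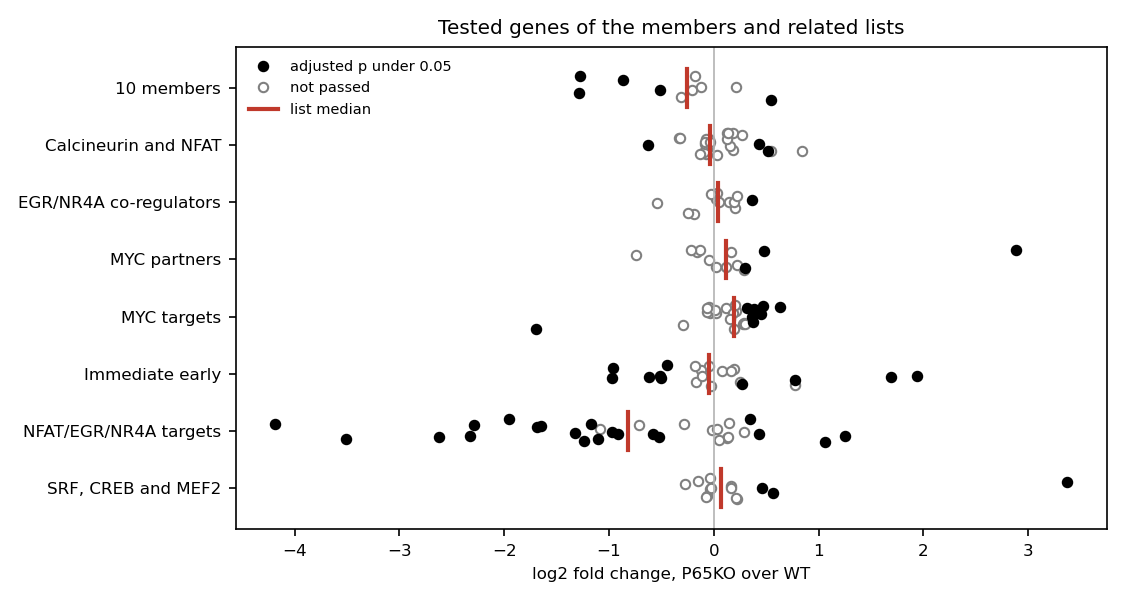
log2 fold change, P65KO over WT (x axis), of each tested gene of the 10 factors and of 7 related lists (rows); filled points passed the test, and red bars are list medians. The list of NFAT, EGR and NR4A targets has its median at -0.82, the MYC targets at 0.20.

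Among MYC partners and antagonists, 3 of 13 tested genes rose and 10 did not pass, where 9.00% of all tested genes rose. The number that rose was 0 to 2 with a library left out and 2 with the replicate block. Max, the obligate partner of Myc, rose 1.23-fold, with 141 ± 3.22 CPM in P65KO libraries and 115 ± 7.40 CPM in WT libraries (SD, n = 2 each), a call that ended in 8 of 11 settings, the replicate block among them. Mxd1, which competes with Myc for Max, rose 1.39-fold, a call that ended in 5 of 11 settings. Mycl had 31 and 14 counts in P65KO libraries and 2 and 4 in WT libraries, highest in the library with the most myeloid transcripts, and its call ended without WT replicate 1, without WT replicate 2 and with no filter. Mnt, a further Max-binding repressor, stood at 73.9 ± 7.56 CPM in P65KO libraries and 66.2 ± 12.6 CPM in WT libraries.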

How the data were processed

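RNA extraction used the RNeasy Plus Mini kit and library preparation a TruSeq RNA kit, per the labels' protocols. Subread, featureCounts, limma and the build GRCm38 (mm10) are named in the submitters' processing notes. Versions, roles, annotation and strand setting were not given in the sources used here. The table deposited by the authors holds raw counts for each Entrez gene, and a file per library holds log2 RPKM values. The deposited values were found to be log2 of (count + 0.5) over gene length and library total, with a whole length within 0.01 for 27178 of 27179 genes.

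Groups and replicate numbers came from sample titles. Counts were filtered with filterByExpr (11172 genes kept), scaled by TMM and compared, P65KO over WT, in R 4.3.3 with the two-sided quasi-likelihood F test (edgeR 4.0.16), adjusted by Benjamini-Hochberg at a threshold of 0.05. "Rose" and "fell" mean past that threshold. SE is the absolute log2 fold change divided by the square root of F. Alternatives were RLE size factors, library totals, no filter, DESeq2 1.42.0, limma-voom (limma 3.58.1), a replicate block and each library left out. Simulated counts for 11172 genes with 200 changed gave 133 calls, 3 of them false, and calls for 37.3%, 71.6% and 86.4% of genes changed 1.5-fold, 2-fold and 4-fold. The simulation gave genes of like abundance the same variability. It also changed 200 genes, where 2310 were called in the data, so its rates need not carry over.

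The genes, lists and tests were chosen with earlier results of these data known. From each list, up to 4 called genes with the largest change were named, beside Nfatc4, Nfat5, Nab1, Nab2, Max, Mnt, Rcan1, Fos and Jun. Irf4, Batf, Ikzf4, Ndrg1, Dgka, Havcr2, Cblb, Itch and Dgkz were named after their values had been seen. Between replicates of a group, chi-square divided by its degrees of freedom was 4.06 for P65KO and 3.66 for WT libraries. Floors cover counting error only. Gene coordinates came from RefSeq (GRCm38.p6), exon overlaps from GENCODE M21. Some genes of the lists are not reported here.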

Additional observations from a re-analysis of the deposited data

How the results depend on the processing

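Of the 10 genes, Egr2 and Nfatc1 kept their calls and Nr4a1, Nr4a3, Egr1, Nfatc2 and Nfatc3 stayed short of the threshold under all 11 alternatives, with log2 differences of -1.33 to -1.25 for Egr2 and -0.96 to -0.76 for Nfatc1. With no filter on low counts, 771 genes were called (246 higher, 525 lower), of the 10 genes 2, and Nr4a2 (-1.28), Egr3 (-0.51) and Myc (0.54) lost their calls. DESeq2 called 1318 genes (587 higher, 731 lower), of the 10 genes 3, without Nr4a2 (-1.28) and Egr3 (-0.51), and limma-voom did not call Nr4a2 (-1.24). Leaving out 1 library gave 916 to 1676 called genes (331 to 680 higher, 585 to 1053 lower) and 2 to 4 of the 10 genes, where the lone library was assumed to vary like the other group. The ranges of log2 differences were then -1.39 to -1.15 for Nr4a2, -0.65 to -0.35 for Egr3, 0.42 to 0.65 for Myc and -0.24 to 0.00097 for Nfatc3. Nfat5 (-0.093 to 0.0052), Mnt (-0.018 to 0.37), Rcan1 (-0.24 to 0.066) and Rela (-0.0066 to 0.15), none of which passed, changed sign in the same way. The cause of the lost calls and of the sign changes was not tested. Leaving out a library left fewer libraries. With no filter more genes were tested, and the variability was estimated anew with them. DESeq2 used the same libraries and the same filtered genes as the main test. With the replicate number as a block, 2319 genes and 5 of the 10 were called, and no call of the 10 changed. Same-numbered libraries deviated in opposite directions (correlation -0.137 across genes, 2 pairs), and a crossed pairing, added after seeing the data, called 2973 genes and 5 of the 10. Depth limits Nr4a2 the most, with 10 counts in each P65KO library.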

Other observations

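Transcription factors that relay receptor signals to the immediate early promoters were also examined. Of 14 tested genes of the serum response factor, CREB and MEF2 group, 3 rose and 11 did not pass, with a median log2 fold change of 0.07. Among all tested genes, 9.00% rose and 20.7% passed in either direction. The 3 that rose were MEF2 genes, which calcium signals activate. Mef2d rose 1.37-fold, with 131 ± 13.2 CPM in P65KO libraries and 95.4 ± 10.5 CPM in WT libraries (SD, n = 2 each), and Mef2a rose 1.48-fold. Mef2c had 40 and 13 counts in P65KO libraries, against 2 and 3 in WT libraries, and was highest in the P65KO library with the most myeloid transcripts. All 3 calls ended without WT replicate 1, without WT replicate 2 and with no filter on low counts, and the highest BH-adjusted p over the 11 other settings (edgeR, DESeq2 or limma-voom) was 0.162 for Mef2a, 0.120 for Mef2c and 0.146 for Mef2d.

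Cd79b, a B cell receptor component and the 1 tested gene of 9 B cell markers, fell to 12.2 ± 2.78 CPM in P65KO libraries against 36.5 ± 3.75 CPM in WT libraries (SD, n = 2 each), and Ebf1 and Pax5 were at 0. The CD8 markers summed to 32.8 and 32.0 CPM in P65KO libraries and 25.3 and 25.8 CPM in WT libraries. Of 4 tested NK markers, Prf1 rose, Klrb1c fell and 2 did not pass, with a sum over 6 markers of 38.5 and 33.1 CPM in P65KO libraries and 33.6 and 42.7 CPM in WT libraries. Stromal and endothelial markers summed to 226 and 248 CPM in P65KO libraries and 176 and 141 CPM in WT libraries. Nearly all of this was Pecam1, at 224 and 248 CPM in P65KO libraries and 175 and 140 CPM in WT libraries. Pecam1 was the 1 tested and was higher, and Col3a1 and Pdgfra were at 0. The sums therefore describe Pecam1 and not the other markers.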
